A study of Homo sapiens with 12 samples.

Results

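The cells studied were MDA-MB-231, a human triple-negative breast cancer (TNBC) cell line. The genes followed were those of MondoA, its partner and its relative, and 4 alpha-arrestin genes that include MondoA's best-known targets. They comprised 7 genes, TXNIP, ARRDC4, ARRDC3, ARRDC2, MLXIP, MLX and MLXIPL, out of 22392 genes with an array feature of their own. Each was taken by its symbol from features that carried exactly 1 gene symbol, and each had 1 such feature. RNA from untreated controls (n = 4), cells given GM-4-53 at 5 µg/mL (n = 3), paclitaxel at 1 µg/mL (n = 2) or GNE-140 at 50 µM (n = 3) was hybridized to whole-transcript arrays 36 h after treatment. The labels write GM-4-53 as GM-453. The compounds were dissolved in DMSO, whereas the controls are labelled as having no treatment, so the solvent and each compound cannot be told apart. All cells grew in high-glucose medium (4500 mg/L) with pyruvate. Paclitaxel stabilizes microtubules, GM-4-53 is a cytostatic benzamide, and GNE-140 blocks lactate dehydrogenase, whose A and B forms turn pyruvate into lactate. No source says that replicates came from separate cultures, and p-values therefore speak only for the spread among these arrays, which may be technical.

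MondoA, encoded by MLXIP, is a transcription factor that works as a pair with MLX. It stays largely in the cytoplasm, at the surface of mitochondria, until glucose 6-phosphate builds up, and then enters the nucleus to bind carbohydrate response elements. TXNIP and ARRDC4 are its best-known targets. Both belong to the alpha-arrestins, adaptors that bring NEDD4-family ubiquitin ligases to membrane proteins, and TXNIP also binds thioredoxin and limits glucose uptake by drawing glucose transporters into the cell. MLXIPL encodes ChREBP, the relative of MondoA that acts mainly in liver and fat.

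RefSeq promoter sequences of TXNIP, ARRDC4 and ARRDC3, picked after their values were seen, are shown because MondoA is known to act at the promoters of TXNIP and ARRDC4. All 7 genes were matched to RefSeq starts (GRCh38.p14), which gave 10 windows from 250 bases before to 50 bases after a start. The windows were searched on both strands for the E-box CACGTG, for CCAAT, for the carbohydrate response element consensus and for a tandem form, CACGNG followed after 5 bases by another CACGNG, which was added after results were known. Of 35114 windows of 300 bases for all genes, 7.26% held the E-box, 34.6% held CCAAT, 0.0883% the consensus and 0.057% the tandem form. The 250 bases before the most upstream start of TXNIP (chr1:145996580-145996829, minus strand), ARRDC4 (chr15:97960453-97960702, plus strand) and ARRDC3 (chr5:91383318-91383567, minus strand) follow, 5′ to 3′, with matches in capitals.
TXNIP: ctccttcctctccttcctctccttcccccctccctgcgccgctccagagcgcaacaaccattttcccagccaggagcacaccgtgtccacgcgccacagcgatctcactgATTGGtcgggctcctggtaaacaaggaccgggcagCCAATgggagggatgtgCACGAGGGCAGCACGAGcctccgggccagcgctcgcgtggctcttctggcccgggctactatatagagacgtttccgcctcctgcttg
ARRDC4: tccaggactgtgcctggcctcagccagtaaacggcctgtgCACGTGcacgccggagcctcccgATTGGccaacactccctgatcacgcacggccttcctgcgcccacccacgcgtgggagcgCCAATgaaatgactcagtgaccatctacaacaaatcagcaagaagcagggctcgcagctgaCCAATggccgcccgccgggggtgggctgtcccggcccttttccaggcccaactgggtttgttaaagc
ARRDC3: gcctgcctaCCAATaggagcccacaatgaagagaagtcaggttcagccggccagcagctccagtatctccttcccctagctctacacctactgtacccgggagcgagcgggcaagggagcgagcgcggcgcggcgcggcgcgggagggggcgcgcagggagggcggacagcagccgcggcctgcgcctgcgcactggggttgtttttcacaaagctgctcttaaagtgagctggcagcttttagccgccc

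The TXNIP window held the tandem form 88 to 72 bases before the start, with a CCAAT match 105 bases before it on the gene's strand and another 140 bases before it on the opposite strand. The ARRDC4 window held an E-box 210 bases before the start and 3 CCAAT matches. The ARRDC3 window held 1 CCAAT match and neither of the longer patterns, and the windows of the second listed start of TXNIP and of ARRDC3 held none. The only other E-box among the 10 windows was in MLX, 50 bases before its start, and none held the consensus. A match describes letters in a window and does not show binding.

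Markers of the cell line were checked first. The level of 6 mesenchymal markers of this line, given as their mean log2 signal, lay between 7.09 and 7.78 over the 12 arrays, against array medians of 2.64 to 2.82. Of these markers SPARC alone was near the array median, with a control mean of 2.56. The mean of 8 measured hormone receptor and luminal genes of 9 lay between 3.55 and 4.06. Control means were 1.86 for PGR, the progesterone receptor gene, 2.09 for FOXA1 and 2.43 for ESR1. CDH1, KRT8, GATA3, KRT18 and EPCAM were brighter, with control means from 4.48 to 5.98. The mean of 8 measured markers of other cell types of 10 lay between 2.24 and 2.71, and ranged from 2.26 to 2.71 in controls, 2.24 to 2.41 with GM-4-53, 2.31 to 2.38 with paclitaxel and 2.53 to 2.68 with GNE-140. Of these 8 markers, 0 passed limma's test against controls with any compound (1, 2 and 0 had an unadjusted p under 0.05 with GM-4-53, paclitaxel and GNE-140), and CD14 was higher with GNE-140 than with GM-4-53. Their part in the results below was not tested. How many of all features had an unadjusted p under 0.05 was not counted, here or in the paragraphs below.

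Control replicate 4 stood furthest from the other controls. Over all features, its correlation averaged 0.978 with arrays of GNE-140 and 0.951 with the other controls. Replicates 1 and 2 each averaged 0.957 with arrays of GNE-140, and 0.963 and 0.962 with the other controls. Replicate 3 lay between, at 0.965 with arrays of GNE-140 and 0.964 with the other controls. The source label of control replicate 4 gives another catalogue number than the other arrays, and its description, like those of the GNE-140 arrays, gives another number in the name of the line, while the cell line field is MDA-MB-231 throughout. Without it, 5919 features passed the test for GNE-140 against controls, against 674 with it. Differences of the named genes from controls are therefore given with and without control replicate 4, except for genes named only by their correlation with TXNIP or ARRDC4. For some genes, TXNIP among them, replicate 3 lay with replicate 4, and leaving out replicate 4 does not remove that spread. The 3 compounds were set against the same 4 controls, so these comparisons are not independent of each other.

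TXNIP, ARRDC4 and ARRDC3 were lowest with GM-4-53, higher with paclitaxel, higher again in controls and highest with GNE-140. No array of any group overlapped another group for these 3 genes, but how many of all features separate in this way was not counted. Nor was it counted for any separation of groups given below. With GNE-140 all 3 rose against controls, by 2.86-fold for TXNIP, 2.60-fold for ARRDC4 and 2.16-fold for ARRDC3. With GM-4-53 ARRDC3 fell 2.10-fold and ARRDC4 1.70-fold, and TXNIP, 1.90-fold lower, missed the threshold. Paclitaxel had 0 of the 7 genes past the threshold. Bulk RNA cannot tell fewer cells with a transcript from less transcript in each cell.

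Against controls, 3 of the 7 genes passed the test with GM-4-53, all lower, where 1.84% of all 53617 features passed and 1.02% were lower. With paclitaxel 0 passed by limma, where 0.657% of features did. There 3 genes had an unadjusted p under 0.05, a level whose share among all features was not counted. The methods' t-test, named in the study's general statistics, also called 0 with paclitaxel, as it did over all features. With GNE-140 3 passed, all higher, where 1.26% of features passed and 0.414% were higher. The median difference over the 7 genes was 0.30 for GNE-140, -0.76 for GM-4-53 and -0.24 for paclitaxel, and over all features it was 0.00, 0.01 and 0.00. Centring each array on its median moved the median of all features to -0.11 for GNE-140 and its split from 222 higher and 452 lower to 111 and 586, with TXNIP, ARRDC4 and ARRDC3 still higher by 1.41, 1.27 and 1.00.

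**Figure D1:**
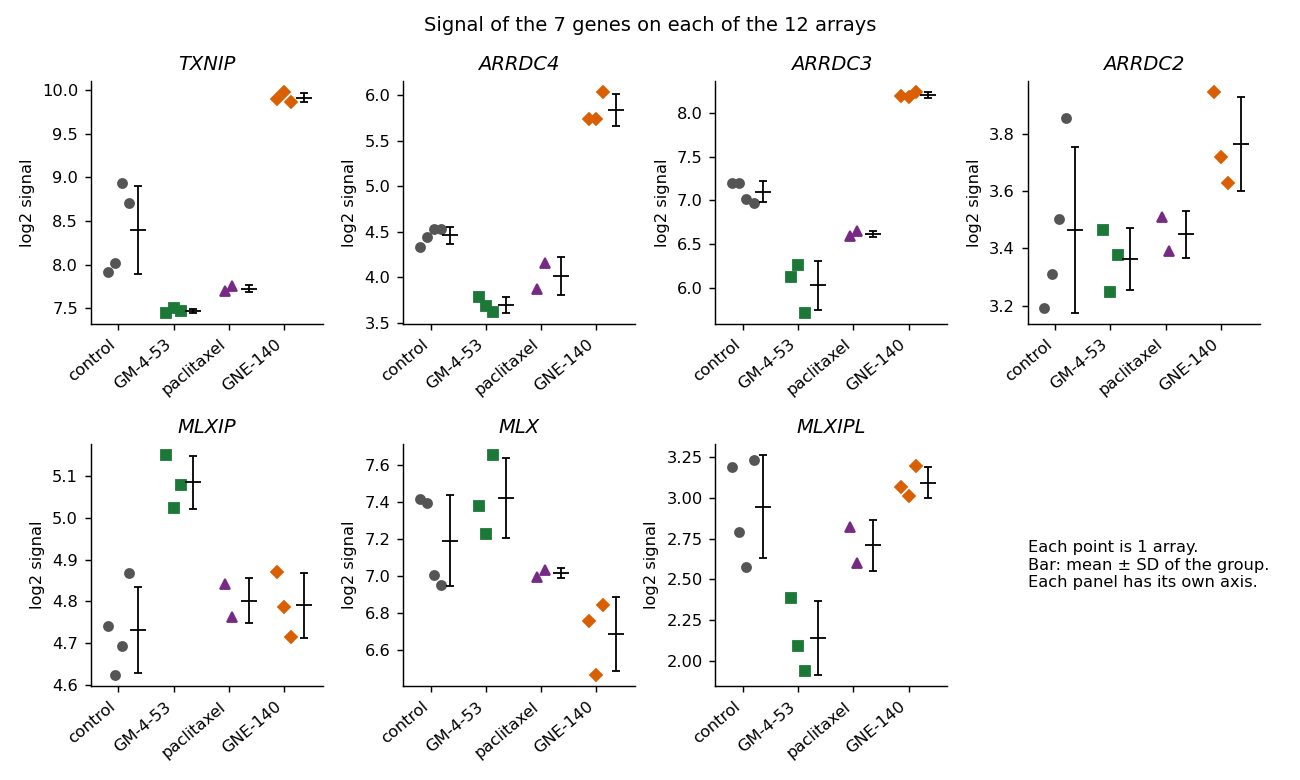
Deposited log2 signal (vertical axis, own scale in each panel) of the 7 genes on each array, by group, with the mean ± SD beside the points. For TXNIP, ARRDC4 and ARRDC3 the 3 GNE-140 arrays lie above all others and the 3 GM-4-53 arrays below all others, while the 4 TXNIP controls spread from 7.92 to 8.94.

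TXNIP was among the brightest features, with a mean signal above that of 98.4% of features. Its log2 signal was 7.92, 8.02, 8.94 and 8.71 in controls 1 to 4. It was 7.45, 7.50 and 7.47 with GM-4-53, 7.70 and 7.76 with paclitaxel, and 9.90, 9.98 and 9.87 with GNE-140. Control replicates 3 and 4 were higher than replicates 1 and 2, and the SD of the controls (0.50) was far larger than that of any treated group (0.02 to 0.06).

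Against controls, TXNIP rose with GNE-140 by 1.52 on the log2 scale (95% interval 1.04 to 1.99, limma adjusted p = 0.0068). Without control replicate 4 the difference was 1.62 (adjusted p = 0.00332). The call was lost without GNE-140 replicate 2 (1.49, adjusted p = 0.0508), in a fit of only the groups compared (adjusted p = 0.064) and with the methods' t-test (adjusted p = 0.204). With a term that joins control replicate 4 to the GNE-140 arrays, which sets GNE-140 against that control alone, the difference was 1.20 (adjusted p = 0.166).

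With GM-4-53 the TXNIP difference from controls was -0.92 (95% interval -1.40 to -0.45), and all 3 arrays lay below all 4 controls, but the limma adjusted p was 0.0571. It passed the threshold without control replicate 1 (-1.08, adjusted p = 0.0247) or control replicate 2 (-1.05, adjusted p = 0.035), and was -0.82 without control replicate 4 (adjusted p = 0.101). With all arrays it also passed with a mean-variance trend (adjusted p = 0.0369), with dim features left out (0.0314), after quantile normalization (0.0451) and with adjustment over features with 1 symbol (0.0408). With paclitaxel the difference was -0.67 (95% interval -1.21 to -0.13, limma adjusted p = 0.289), and -0.57 without control replicate 4 (adjusted p = 0.377).

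ARRDC4, the alpha-arrestin closest to TXNIP in its regulation by glucose, is an adaptor of membrane proteins. Log2 signals for ARRDC4 were 4.33, 4.44, 4.53 and 4.53 in controls, 3.78, 3.68 and 3.61 with GM-4-53, 3.87 and 4.16 with paclitaxel, and 5.74, 5.74 and 6.04 with GNE-140. The controls lay close together here (SD 0.10), and control replicate 4 did not stand apart from the others. ARRDC4 rose with GNE-140 by 1.38 (95% interval 1.10 to 1.65, limma adjusted p = 0.000487), and by 1.40 without control replicate 4 (adjusted p = 0.000672). This call held in all 12 fits that left out 1 array, where the highest adjusted p was 0.00473.

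ARRDC4 fell with GM-4-53 by 0.76 (95% interval -1.04 to -0.49, limma adjusted p = 0.0125), and the value was -0.74 without control replicate 4 (adjusted p = 0.0216). The call was lost without GM-4-53 replicate 2 (adjusted p = 0.0527) or replicate 3 (adjusted p = 0.0509), with only the groups compared (0.0934) and with the methods' t-test (0.0998). With paclitaxel the difference was -0.45 (95% interval -0.76 to -0.13, limma adjusted p = 0.218), and -0.42 without control replicate 4 (adjusted p = 0.256).

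ARRDC3, an alpha-arrestin known as a suppressor of breast cancer growth through its action on membrane receptors and integrins, moved in the same order. Its log2 signal was 7.20, 7.20, 7.02 and 6.97 in controls, 6.12, 6.26 and 5.71 with GM-4-53, 6.59 and 6.64 with paclitaxel, and 8.20, 8.18 and 8.24 with GNE-140. The groups did not overlap, and controls 3 and 4, the higher pair for TXNIP, were the lower pair for ARRDC3. It rose with GNE-140 by 1.11 (95% interval 0.81 to 1.41, limma adjusted p = 0.003) and fell with GM-4-53 by 1.07 (95% interval -1.37 to -0.77, limma adjusted p = 0.0036).

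Without control replicate 4 the ARRDC3 differences were 1.07 (adjusted p = 0.00312) and -1.11 (adjusted p = 0.00539). Both ARRDC3 calls held in all 12 fits that left out 1 array, but that for GM-4-53 was lost with only the groups compared (adjusted p = 0.0726) and with the methods' t-test (adjusted p = 0.155). With paclitaxel the difference was -0.48 (95% interval -0.82 to -0.14, limma adjusted p = 0.228), and -0.52 without control replicate 4 (adjusted p = 0.196).

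ARRDC2, the least studied of these alpha-arrestins, was dim and passed no test. ARRDC2 stood at 3.19, 3.31, 3.50 and 3.85 in controls, 3.46, 3.25 and 3.38 with GM-4-53, 3.51 and 3.39 with paclitaxel, and 3.95, 3.72 and 3.63 with GNE-140. The controls alone spanned most of this range, and control replicate 4 lay among the GNE-140 arrays. The difference for GNE-140 was 0.30 (95% interval -0.05 to 0.65, limma adjusted p = 0.358) and 0.43 without that array (adjusted p = 0.0591). For GM-4-53 it was -0.10 (95% interval -0.45 to 0.25), and for paclitaxel -0.01 (95% interval -0.41 to 0.38), and both turned positive without control replicate 4, to 0.03 and 0.11.

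MLXIP, the gene of MondoA itself, stayed within a narrow range. MLXIP signals were 4.74, 4.62, 4.69 and 4.87 in controls, 5.15, 5.02 and 5.08 with GM-4-53, 4.84 and 4.76 with paclitaxel, and 4.87, 4.79 and 4.71 with GNE-140. The GM-4-53 arrays lay above all others, and the paclitaxel and GNE-140 arrays overlapped the controls. Features placed so were not counted. The difference was 0.35 for GM-4-53 (95% interval 0.12 to 0.59, limma adjusted p = 0.141), 0.07 for paclitaxel (95% interval -0.20 to 0.34) and 0.06 for GNE-140 (95% interval -0.18 to 0.29). The last was -0.05 after each array was centred on its median. Leaving out control replicate 4 gave 0.40, 0.12 and 0.11, and none was called.

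MLX, the partner that MondoA needs to bind DNA, had log2 signals of 7.42, 7.39, 7.01 and 6.95 in controls and 7.38, 7.23 and 7.66 with GM-4-53. With paclitaxel they were 7.00 and 7.03, and with GNE-140 they were 6.76, 6.46 and 6.84. The GNE-140 arrays lay below every other array, a pattern not counted over all features, and controls 3 and 4 lay nearer to them than controls 1 and 2. The difference from controls was -0.50 for GNE-140 (95% interval -0.86 to -0.15, limma adjusted p = 0.166), and it passed the threshold without control replicate 4 (-0.58, adjusted p = 0.0439). It was 0.23 for GM-4-53 (95% interval -0.13 to 0.58) and -0.18 for paclitaxel (95% interval -0.58 to 0.23), or 0.15 and -0.26 without control replicate 4.

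MLXIPL was dim, with a mean above that of 50.7% of features. MLXIPL signals were 3.19, 2.79, 2.58 and 3.24 in controls, 2.39, 2.09 and 1.94 with GM-4-53, 2.82 and 2.60 with paclitaxel, and 3.07, 3.01 and 3.20 with GNE-140. The GM-4-53 arrays lay below all others, a pattern not counted over all features, and the paclitaxel and GNE-140 arrays each overlapped the controls but not each other. MLXIPL fell with GM-4-53 by 0.81 (95% interval -1.19 to -0.42, limma adjusted p = 0.043). The call remained without control replicate 2 or 3 but not without any 1 of the other 10 arrays, control replicate 4 among them (-0.71, adjusted p = 0.0713), where the adjusted p ran from 0.0651 to 0.142. The difference was -0.24 for paclitaxel (95% interval -0.67 to 0.20) and 0.15 for GNE-140 (95% interval -0.24 to 0.53), or -0.14 and 0.24 without control replicate 4.

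**Figure D2:**
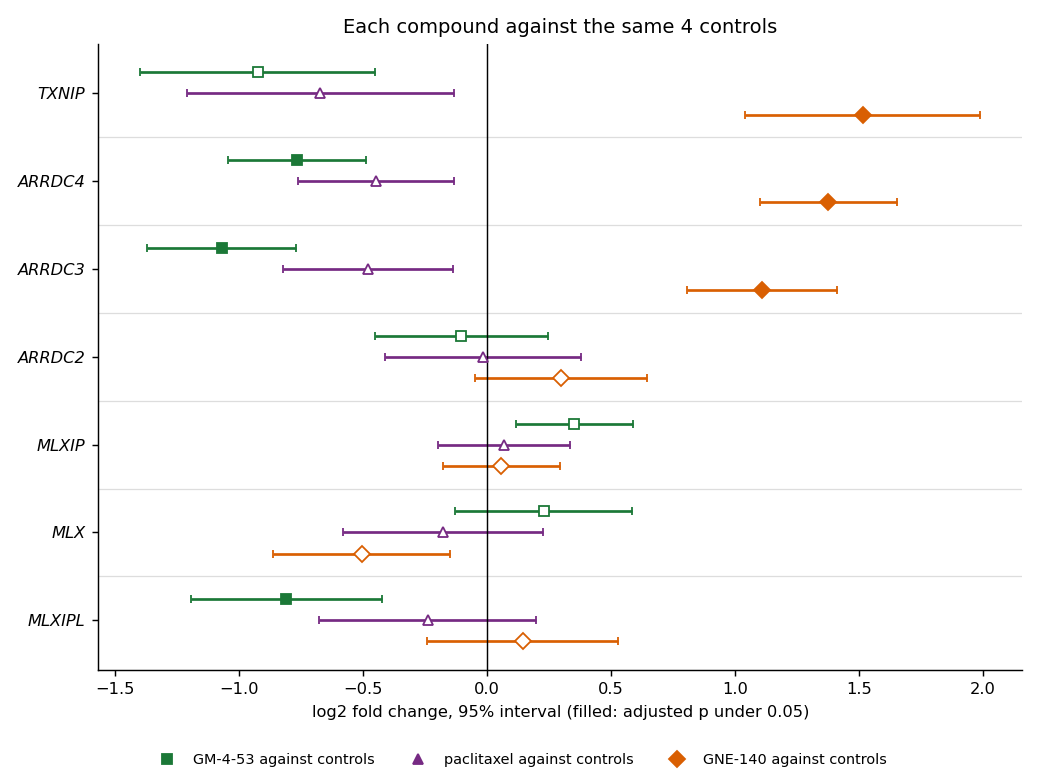
Log2 fold change of the 7 genes with each compound against the same 4 controls (horizontal axis), with 95% intervals from limma and filled symbols at an adjusted p under 0.05. GNE-140 points for TXNIP, ARRDC4 and ARRDC3 are filled at 1.11 to 1.52, and those for GM-4-53 are filled for ARRDC4, ARRDC3 and MLXIPL.

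Differences between compounds use no control mean, but their tests take part of their spread from the controls. Without control replicate 4, features called rose from 5126 to 9113 for GNE-140 against GM-4-53 and from 2175 to 5273 for GNE-140 against paclitaxel, with the same members called. The compounds were given at different doses, each chosen by the study as fully effective and not toxic, so the values are side by side and not matched. Between GNE-140 and GM-4-53, 5 of 7 genes passed, 4 of them higher with GNE-140, where 9.56% of features passed and 4.18% were higher. TXNIP was 5.43-fold higher with GNE-140 (log2 difference 2.44, 95% interval 1.93 to 2.95, limma adjusted p = 0.000186). ARRDC4 was 4.42-fold higher (2.14, 1.85 to 2.44, adjusted p = 3.69e-05) and ARRDC3 was 4.53-fold higher (2.18, 1.86 to 2.50, adjusted p = 4.06e-05). These 3 calls held in all 12 fits that left out 1 array.

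MLXIPL was also higher with GNE-140 than with GM-4-53, by 0.95 (95% interval 0.54 to 1.37, limma adjusted p = 0.0109), and the groups did not overlap. MLX was the 1 gene that was lower, at -0.73 (95% interval -1.11 to -0.35, limma adjusted p = 0.0239), and here too the groups did not overlap. The share of all features without overlap between these groups was not counted. The MLX call was lost without GM-4-53 replicate 1 (adjusted p = 0.0582) or 3 (0.0743), without GNE-140 replicate 1 (0.0686) or 2 (0.105) and with the methods' t-test (0.079). ARRDC2 differed by 0.40 (95% interval 0.03 to 0.77, limma adjusted p = 0.148) and MLXIP by -0.29 (95% interval -0.55 to -0.04, limma adjusted p = 0.122). After median centring MLXIP passed as lower (-0.42, limma adjusted p = 0.0416), as did 3934 of all features, against 2884 without centring.

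Against paclitaxel, 3 of 7 genes passed with GNE-140, all higher, where 4.06% of features passed and 1.26% were higher. GNE-140 gave 4.56-fold more TXNIP (2.19, 95% interval 1.62 to 2.75, limma adjusted p = 0.00122), 3.54-fold more ARRDC4 (1.82, 1.49 to 2.16, adjusted p = 0.000158) and 3.01-fold more ARRDC3 (1.59, 1.23 to 1.95, adjusted p = 0.000725). All 3 calls held in the 12 fits that left out 1 array, with adjusted p up to 0.0258. With 1 paclitaxel array left out, the remaining one was taken to have the spread of the other groups. The other 4 genes differed by -0.33 to 0.38 and passed no test.

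A term that joins control replicate 4 to the GNE-140 arrays makes both comparisons run through the controls. TXNIP was then 2.02 higher with GNE-140 than with GM-4-53 (adjusted p = 0.0508) and 1.77 higher than with paclitaxel (adjusted p = 0.145), and neither was called, while ARRDC4 and ARRDC3 stayed called. MLXIPL (0.57, adjusted p = 0.525) and MLX (-0.41, adjusted p = 0.66) lost theirs against GM-4-53.

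Between GM-4-53 and paclitaxel, limma called 0 of 7 genes, where 0.0242% of features passed, and 3 genes had an unadjusted p under 0.05. The methods' t-test called 0 of the 7 genes, and 1 of all features. The largest difference was in ARRDC3, -0.59 (95% interval -0.95 to -0.23, limma adjusted p = 0.418), whose 3 GM-4-53 arrays lay below both paclitaxel arrays. TXNIP differed by -0.25 (95% interval -0.82 to 0.31) and ARRDC4 by -0.32 (95% interval -0.65 to 0.01). The intervals are wide, and the compounds are not shown to act alike on these genes.

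**Figure D3:**
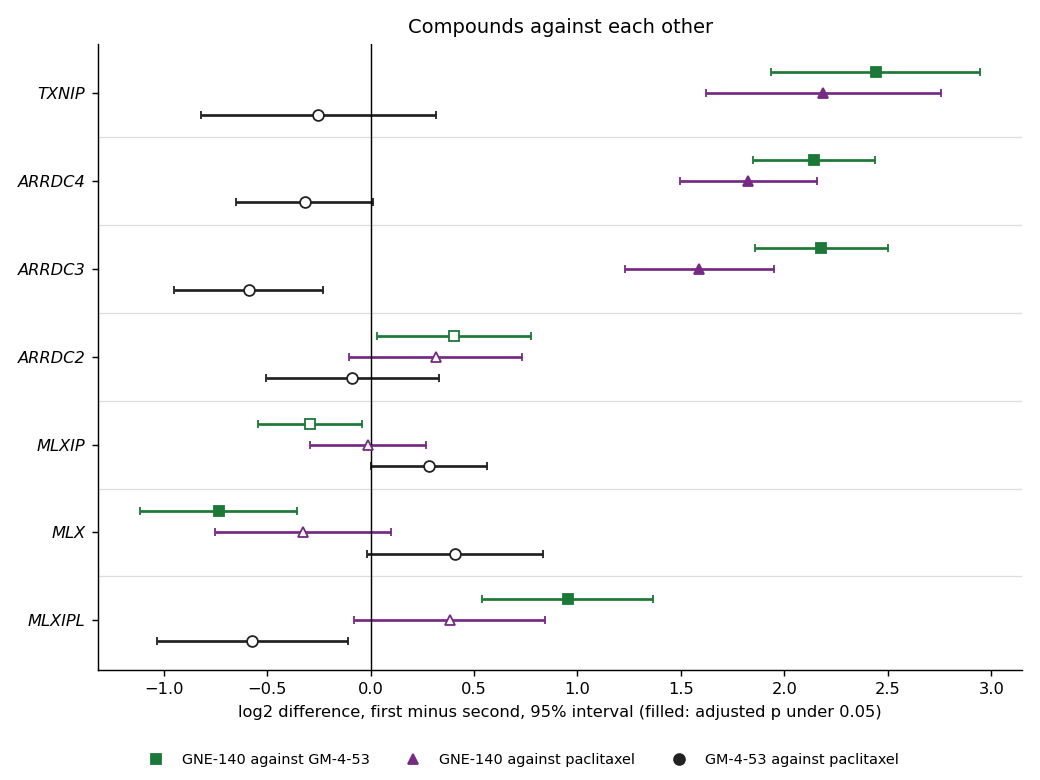
Log2 difference of the 7 genes between compounds (horizontal axis, first named minus second), with 95% intervals from limma and filled symbols at an adjusted p under 0.05. TXNIP, ARRDC4 and ARRDC3 lie at 1.59 to 2.44 in both comparisons of GNE-140, and no symbol of GM-4-53 against paclitaxel is filled.

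Over the 12 arrays the signal of TXNIP had a Pearson correlation of 0.97 with ARRDC4, 0.92 with ARRDC3, 0.76 with ARRDC2 and 0.65 with MLXIPL. It was -0.44 with MLXIP and -0.82 with MLX. The arrays form separate groups by treatment, so these coefficients mostly describe the group means. Within the controls the order of TXNIP was that of ARRDC4, though ARRDC4 was 4.53 in both replicates 3 and 4. It was not that of ARRDC3.

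**Figure D4:**
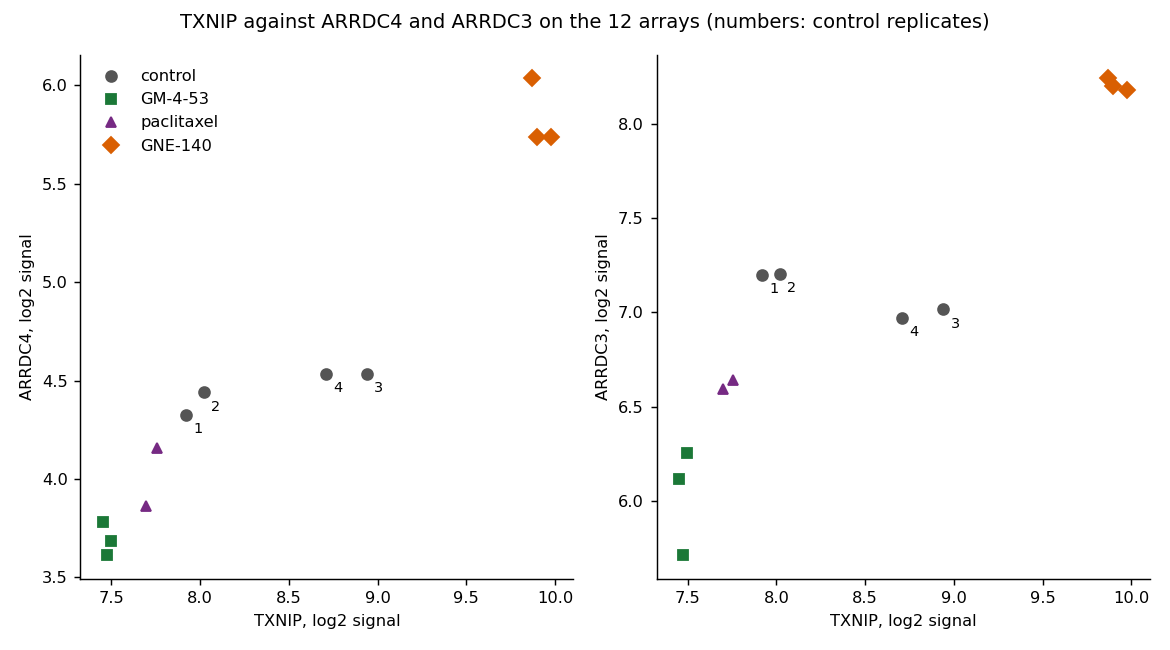
Log2 signal of TXNIP (horizontal axis) against ARRDC4 (left, vertical axis) and ARRDC3 (right) on the 12 arrays, by group, with control replicates numbered. Groups follow 1 order on both axes, while control replicates 3 and 4 lie to the right of replicates 1 and 2 for TXNIP with ARRDC4 between 4.33 and 4.53 and ARRDC3 between 6.97 and 7.20.

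Among 14202 named genes with a mean above the median feature, those most correlated with TXNIP over the 12 arrays were DHX32 (r = 0.99), BHLHE41 (0.99), EBLN3P (0.98), RAB27B (0.97) and SQSTM1 (0.97). ARRDC4 ranked 14 and ARRDC3 ranked 105. BHLHE41 encodes the circadian repressor DEC2, RAB27B a vesicle GTPase and SQSTM1 the autophagy receptor p62. For ARRDC4 they were the features annotated MIR146A (0.98), DLGAP1-AS1 (0.98), EBLN3P (0.97), BHLHE41 (0.97) and EEIG1 (0.97), TXNIP ranked 11 and ARRDC3 13. With all arrays BHLHE41 differed from controls by 1.20 with GNE-140, -0.995 with GM-4-53 and -0.79 with paclitaxel, and values without control replicate 4 are not given.

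Other genes known as targets of carbohydrate response elements, most of them through ChREBP in liver, were taken as a list. Of 22 measured genes of 23, 2 were higher with GNE-140 (PDK4 and KLF10), 2 were lower with GM-4-53 (SCD and KLF10) and 2 were lower with paclitaxel (SCD and FASN). Of all features, 0.414% were higher with GNE-140, 1.02% lower with GM-4-53 and 0.157% lower with paclitaxel. Their median difference was 0.05, -0.13 and -0.14 for GNE-140, GM-4-53 and paclitaxel, against 0.00, 0.01 and 0.00 over all features. The methods' t-test called 0 genes against controls in this and the other pathway lists that follow.

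KLF10, a zinc finger repressor that also responds to TGF-beta, followed the order of TXNIP at the ends. Its log2 signal was 7.43, 7.26, 7.58 and 7.39 in controls, 6.79, 6.89 and 6.88 with GM-4-53, 7.39 and 7.33 with paclitaxel, and 7.95, 7.96 and 8.17 with GNE-140. The GNE-140 arrays lay above all controls and the GM-4-53 arrays below, with paclitaxel among the controls. How many of all features are placed so was not counted. KLF10 rose with GNE-140 by 0.61 (limma adjusted p = 0.0278) and fell with GM-4-53 by 0.56 (limma adjusted p = 0.0353). The values were 0.60 and -0.57 without control replicate 4, still called. The calls were lost in 7 and in 10 of the 12 fits that left out 1 array (adjusted p from 0.0525 to 0.151 and from 0.0536 to 0.124).

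PDK4, a kinase that holds back the entry of pyruvate into mitochondria, had log2 signals of 3.06, 2.88, 3.07 and 3.06 in controls and 3.88, 3.67 and 3.82 with GNE-140. It rose by 0.77 (limma adjusted p = 0.0125), and by 0.78 without control replicate 4, and the call was lost without GNE-140 replicate 1 or 3 (adjusted p from 0.0691 to 0.0866). SCD, a desaturase of fatty acid synthesis, was 9.66, 9.71, 10.06 and 10.10 in controls. It was 8.85, 8.81 and 8.90 with GM-4-53 and 8.82 and 8.77 with paclitaxel, below all controls, and 9.80, 9.78 and 9.83 with GNE-140, among the controls. Here too the share of all features with such a separation was not counted. SCD fell by 1.03 with GM-4-53 (limma adjusted p = 0.00304) and by 1.09 with paclitaxel (limma adjusted p = 0.01), the latter lost without either paclitaxel array (adjusted p up to 0.158). They were -0.96 and -1.02 without control replicate 4, both called. FASN, the fatty acid synthase, fell with paclitaxel by 0.69 (limma adjusted p = 0.0469), a call lost in every fit that left out 1 array (adjusted p from 0.0543 to 0.354), that without control replicate 4 among them (-0.66, adjusted p = 0.0642).

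**Figure D5:**
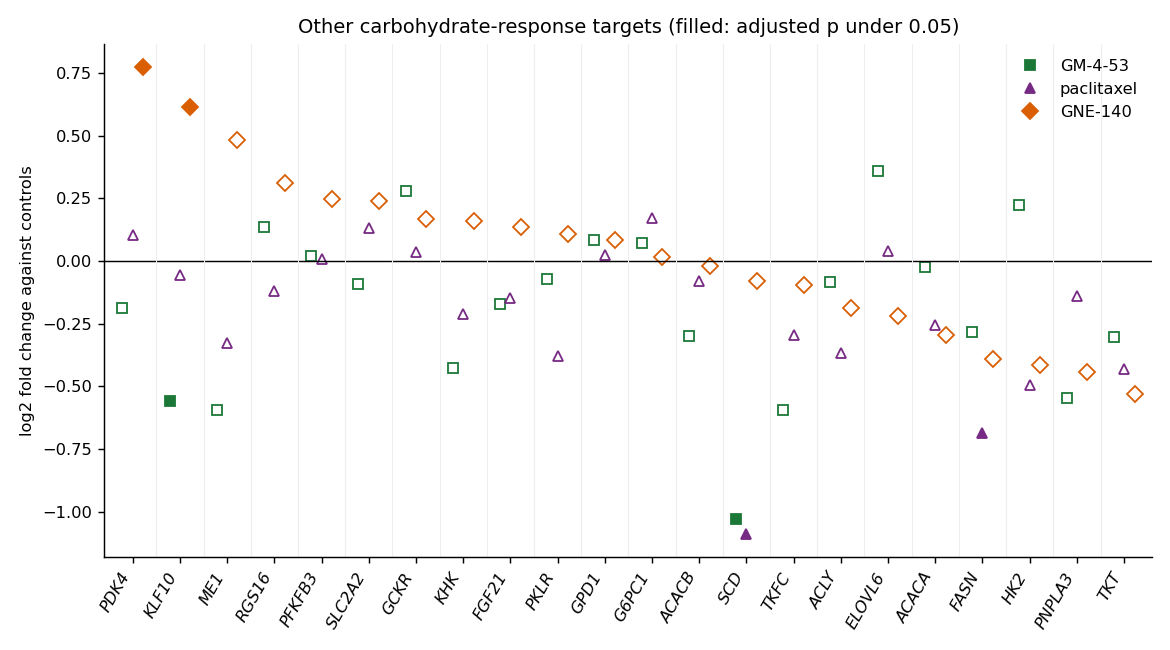
Log2 fold change against controls (vertical axis) of 22 other carbohydrate-response targets with each compound. Filled symbols had an adjusted p under 0.05, and genes are ordered by their GNE-140 value. PDK4 and KLF10 are the filled GNE-140 points at 0.77 and 0.61, and SCD is filled for GM-4-53 and paclitaxel near -1.03 and -1.09.

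The genes of the enzymes that GNE-140 blocks were not called with all arrays. LDHA was 7.30, 7.25, 6.92 and 7.00 in controls and 7.24, 7.20 and 7.21 with GNE-140, a difference of 0.10 (95% interval -0.17 to 0.36, limma adjusted p = 0.705). LDHB was 5.69, 5.68, 5.51 and 5.29 in controls and 5.25, 5.25 and 5.19 with GNE-140, a difference of -0.31 (95% interval -0.57 to -0.05, limma adjusted p = 0.231). Without control replicate 4, which had the lowest LDHB of the controls, LDHB passed as lower (-0.39, adjusted p = 0.0379) and LDHA did not (0.06). Of 17 measured genes of lactate and pyruvate handling of 20, PDK4 alone passed with GNE-140, as higher, where 0.414% of all features did. By limma 0 passed with GM-4-53 or paclitaxel (3 and 2 at an unadjusted p under 0.05). The medians were -0.08, -0.11 and -0.06 for GNE-140, GM-4-53 and paclitaxel.

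Of 21 genes of glucose uptake and glycolysis, 1 passed with GNE-140, as higher, where 0.414% of all features did. By limma 0 passed with GM-4-53 or paclitaxel (6 and 5 at an unadjusted p under 0.05, a level whose share among all features was not counted). The medians were -0.01 for GNE-140, -0.13 for GM-4-53 and -0.15 for paclitaxel. The 1 gene that passed was SLC2A3, the gene of the high-affinity glucose transporter GLUT3. It was at 4.72, 4.80, 4.75 and 4.20 in controls and 5.46, 5.63 and 5.77 with GNE-140. SLC2A3 rose by 1.00 (limma adjusted p = 0.017), and the call was lost without any 1 of the 3 GNE-140 arrays (adjusted p from 0.0594 to 0.0985). Without control replicate 4, the lowest control, it rose by 0.87 (adjusted p = 0.00641), and it passed as lower with GM-4-53 (-0.76, adjusted p = 0.025). SLC2A1, the gene of GLUT1, the transporter that TXNIP draws from the cell surface, is named here after its values were seen. It was 9.42, 9.48, 8.63 and 8.61 in controls, 9.42, 9.25 and 9.53 with GM-4-53, 9.28 and 9.41 with paclitaxel, and 8.47, 8.44 and 8.35 with GNE-140. Its controls split between replicates 1 and 2 and replicates 3 and 4, as those of TXNIP did in the opposite direction, and its difference with GNE-140 was -0.62 (95% interval -1.08 to -0.15, limma adjusted p = 0.191), which passed without control replicate 4 (-0.76, adjusted p = 0.0381). Between compounds SLC2A1 passed as lower with GNE-140 than with GM-4-53.

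In the MAX and MLX network, which shares MLX and binds the same E-boxes, 1 of 9 measured genes of 10 passed with GNE-140 and 1 with paclitaxel, both times MYC, and 0 passed with GM-4-53 by limma (3 at an unadjusted p under 0.05). The share of all features that were lower was 0.843% with GNE-140 and 0.157% with paclitaxel. The list's medians were 0.09 for GNE-140, -0.43 for paclitaxel and -0.17 for GM-4-53. MYC, which competes with MondoA for related sites, was 5.85, 6.11, 6.35 and 6.18 in controls, 5.59, 5.61 and 5.65 with GM-4-53, 5.12 and 5.00 with paclitaxel, and 4.92, 4.92 and 4.98 with GNE-140. All treated arrays lay below all controls, a pattern whose share among all features was not counted. MYC fell by 1.18 with GNE-140 (limma adjusted p = 0.00118) and by 1.06 with paclitaxel (limma adjusted p = 0.00985), the latter lost without either paclitaxel array (adjusted p up to 0.163). With GM-4-53 the difference was -0.51 (95% interval -0.78 to -0.23, limma adjusted p = 0.0714). The MYC values were -1.16, -1.04 and -0.49 without control replicate 4, and the same 2 were called.

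Partners of the alpha-arrestins were followed too. Of 9 NEDD4-family ligases, NEDD4L alone passed against controls, as higher with GM-4-53 like 0.815% of features, and the medians were 0.01 for GNE-140, 0.20 for GM-4-53 and 0.08 for paclitaxel. NEDD4L was 7.50, 7.51, 7.23 and 7.23 in controls, 8.43, 8.42 and 8.55 with GM-4-53, 7.83 and 7.71 with paclitaxel, and 6.93, 6.95 and 6.92 with GNE-140. Its groups did not overlap and stood in the reverse of the TXNIP order, a pattern whose share among all features was not counted. It rose with GM-4-53 by 1.10 (limma adjusted p = 0.00154) in all 12 fits that left out 1 array, and was -0.43 with GNE-140 (limma adjusted p = 0.105). Leaving out control replicate 4 gave 1.06 and -0.48, and the second passed too (adjusted p = 0.0278). It was lower with GNE-140 than with GM-4-53, at -1.53 (limma adjusted p = 9.73e-05) and than with paclitaxel, at -0.84 (limma adjusted p = 0.00742). In all 3 of 9 ligases were lower with GNE-140 than with GM-4-53, NEDD4 (-0.67, limma adjusted p = 0.0272) and SMURF2 (-0.71, limma adjusted p = 0.00509) being the others, where 5.38% of features were lower. Against paclitaxel NEDD4L alone passed, where 2.79% of features were lower.

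Of 7 other arrestin-fold genes measured of 8, ARRB1, encoding beta-arrestin, was the 1 that passed against controls. It was lower with GM-4-53, as 1.02% of all features were. The medians of the list were 0.26 for GNE-140, -0.19 for GM-4-53 and -0.03 for paclitaxel. ARRB1 was 5.13, 4.90, 5.07 and 5.21 in controls, 4.45, 4.29 and 4.31 with GM-4-53, 4.70 and 4.55 with paclitaxel, and 5.67, 5.54 and 5.38 with GNE-140. The groups of ARRB1 stood apart in the order of TXNIP, and how many of all features do so was not counted. ARRB1 fell with GM-4-53 by 0.73 (limma adjusted p = 0.0125, lost without GM-4-53 replicate 2 at 0.0587) and by 0.68 without control replicate 4. Its difference with GNE-140 was not called with all arrays and passed without that array (0.50, adjusted p = 0.0282). ARRB1 was higher with GNE-140 than with GM-4-53 by 1.18 (limma adjusted p = 0.000407) and than with paclitaxel by 0.91 (limma adjusted p = 0.00612). ARRDC5 was the other of these 7 genes that was higher with GNE-140 than with GM-4-53 (0.51, limma adjusted p = 0.0357). Of 13 thioredoxin-system genes measured of 15, 0 passed against controls by limma with any compound (2, 3 and 2 at an unadjusted p under 0.05 with GNE-140, GM-4-53 and paclitaxel), with medians of 0.06, 0.05 and 0.04.

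TXNIP and ARRDC3 are known to respond to glucocorticoids in other cells, and 9 of 11 glucocorticoid-induced genes were measured. Of these, 1 passed with each compound, as lower with GM-4-53 and paclitaxel and as higher with GNE-140. The shares of all features that did so were 1.02%, 0.157% and 0.414%. TSC22D3, encoding GILZ, fell with GM-4-53 by 0.74 (limma adjusted p = 0.0118, lost without GM-4-53 replicate 1 at 0.0584), KLF9 fell with paclitaxel by 0.85 (limma adjusted p = 0.042) and CEBPD rose with GNE-140 by 0.76 (limma adjusted p = 0.0483). The KLF9 and CEBPD calls were lost in 10 and 11 of the 12 fits that left out 1 array (adjusted p up to 0.352 and 0.21). Leaving out control replicate 4 gave -0.77 for TSC22D3, -0.86 for KLF9 (adjusted p = 0.0551) and 0.86 for CEBPD (adjusted p = 0.008). The medians were 0.21 for GNE-140, -0.20 for GM-4-53 and -0.33 for paclitaxel.

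Of the 6 mesenchymal markers, 0 passed against controls by limma with any compound (3, 3 and 1 at an unadjusted p under 0.05 with GNE-140, GM-4-53 and paclitaxel), and 5 were lower with GNE-140 than with GM-4-53, where 5.38% of features were. Among luminal genes KRT18, a keratin, fell with GNE-140 by 0.64 (limma adjusted p = 0.0497), a call lost in 10 of the 12 fits that left out 1 array (adjusted p up to 0.203) but not without control replicate 4 (-0.60). The part of these shifts in the differences between GNE-140 and GM-4-53 was not tested.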

How the data were processed

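Affymetrix Expression Console was used by the authors to summarize the scanned Human Gene 2.1 ST arrays, and the deposited values are log2 signals. Neither its version nor its settings for summarization were given in the sources used here. The scanned files were not used here, so background and detection could not be checked. The table held 53617 features on 12 arrays, with values from 0.13 to 12.2. The platform annotation gave 23866 features 1 symbol, 1852 several and 27899 none, and 22560 were matched to RefSeq by gene ID. Where a gene had several features, the one with the highest mean was used.

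All arrays were fitted in 1 limma model with 4 groups (limma 3.58.1, R 4.3.3, lmFit and eBayes), with 6 comparisons and Benjamini-Hochberg adjustment over all features in each. A gene was called when its adjusted p was under 0.05, whatever its fold change, and no correction was made across comparisons. Intervals are 95% and not adjusted. The genes and lists were chosen with earlier results of these data known. Genes named were the 7 members, up to 4 called genes per list, LDHA and LDHB, and the 5 genes most correlated with TXNIP and ARRDC4. Others, such as SLC2A1, SPARC, PGR, CD14, NEDD4, SMURF2 and ARRDC5, were chosen after their values were seen. Alternatives covered the groups fitted, a mean-variance trend, weights per array, the methods' t-test, a filter on dim features, median centring, quantile normalization, features with 1 symbol, a 2-fold limit, the replicate number as a block, the mean over features, control replicate 4 joined to GNE-140, and each array left out. The number of arrays limits the precision.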

Additional observations from a re-analysis of the deposited data

Results flagged for a closer look

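In 2 of 21 genes checked in the 4 controls, 1 control lay far from the other 3, a distance that chance gives in about 1 of 20 groups. PDK4 was 2.88 in control replicate 2, below the other controls. SLC2A3 was 4.20 in control replicate 4, below the other controls.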

How the results depend on the processing

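Of 7 genes, the number called for GM-4-53 against controls was 3, where 985 of all 53617 features were called. It became 0 with only the groups compared (63 of all features), 0 with the methods' t-test (6) and 1 with a 2-fold limit (371). It was 1 to 4 when 1 array was left out. For GNE-140 against GM-4-53 it was 5 (5126 of all features). It became 3 with a 2-fold limit (1766) and 2 with control replicate 4 joined to the GNE-140 arrays (291). It was 4 to 5 when 1 array was left out, and after median centring MLXIP was called as well. For GNE-140 against controls it ran from 2 to 4 when 1 array was left out. For GNE-140 against paclitaxel it was 3 (2175 of all features), or 2 with control replicate 4 joined to the GNE-140 arrays (63). The count stayed at 0 for paclitaxel against controls and for GM-4-53 against paclitaxel under every alternative run. ARRDC4 and ARRDC3 stayed called in all 3 comparisons of GNE-140 under every alternative run.

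ARRDC2, MLXIP and MLXIPL changed sign where they were not called. ARRDC2 against controls became 0.0714 for paclitaxel with array weights, and 0.0273 for GM-4-53 and 0.123 for paclitaxel in the fit with the replicate block. With control replicate 4 joined to the GNE-140 arrays ARRDC2 was -0.0896 for GNE-140, 0.0273 for GM-4-53 and 0.115 for paclitaxel against controls, and -0.117 and -0.205 for GNE-140 against GM-4-53 and paclitaxel. In that fit MLXIP was -0.0776 and MLXIPL -0.144 for GNE-140 against controls, and MLXIPL was -0.00313 for GNE-140 against paclitaxel. MLXIP was -0.0162 for paclitaxel against controls and 0.147 for GNE-140 against paclitaxel after quantile normalization, -0.0513 for GNE-140 against controls after median centring, and 0.00128 for GNE-140 against paclitaxel with the replicate block. Leaving out 1 array, ARRDC2 ran from -0.193 to 0.0273 for GM-4-53 and from -0.105 to 0.115 for paclitaxel, and MLXIP from -0.0511 to 0.0273 for GNE-140 against paclitaxel. The cause was not tested.

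Replicate numbers did not pair the arrays: deviations of same-numbered arrays correlated at -0.08 to 0.13, 1 of 15 pairs was over 0.1, and 5 of 11 arrays matched their own number best. The replicate block gave 2 calls for GM-4-53 and 3 for GNE-140 against controls, 5 for GNE-140 against GM-4-53 and 3 against paclitaxel. Over all features, calls ran from 6 (the methods' t-test) to 1422 (dim features left out) around 985 for GM-4-53 against controls, from 60 to 5919 around 674 for GNE-140 and from 0 to 690 around 352 for paclitaxel, from 291 to 12155 around 5126 and from 63 to 11652 around 2175 for GNE-140 against GM-4-53 and paclitaxel, and from 0 to 92 around 13 between those.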
